A study of Mus musculus with 160 samples.

Results

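Chemokines are small secreted proteins that guide leukocytes through receptors of the G-protein-coupled class, and the CC group is named for a pair of neighboring cysteines. Ccl3 and Ccl4 are inflammatory chemokines of macrophages and other leukocytes, and Ccl3 signals through Ccr1 among other receptors. Ccl6 and Ccl9 are myeloid chemokines that act on Ccr1, Ccl2 attracts monocytes through Ccr2, and Ccl5 attracts T cells and monocytes, in part through Ccr1. Ccl3 is also known as a brake on the proliferation of blood progenitors. These 6 genes (Ccl2, Ccl3, Ccl4, Ccl5, Ccl6 and Ccl9), out of 23420 rows of the expression table, are described here in every cell. The set was selected on measured values, namely its levels over the 4 groups of cells and over day-21 cells split by Gata2, so those levels are given as a description and nothing is read from them.

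The 160 single cells came from C57BL/6 pluripotent stem cells with a doxycycline-inducible Runx1-p2a-Hoxa9 cassette at Rosa26, from selected positive clones, and all groups shared it. The iHPCs were of embryonic stem cell origin per the study's text, whereas the labels name both kinds. The 65 induced hemogenic endothelial cells (iHECs) were sorted as CD31+CD41lowCD45-c-kit+CD201high, from cultures that had already received doxycycline and medium conditioned by AFT024 stromal lines. The induced hematopoietic progenitor cells (iHPCs) had then matured from iHECs on OP9-DL1, a GFP-marked stromal feeder that displays a Notch ligand, with both treatments continued. The 21 day-14 and 18 day-17 iHPCs, at maturation days 3 and 6, were sorted as CD45+ cells negative for markers of T cells (CD2, CD3, CD4, CD8), B cells, erythroid cells (Ter119), granulocytes (Gr1), macrophages (F4/80) and mast cells (FcεRIα). The 56 day-21 iHPCs, at maturation day 10, were sorted as Ter119-CD45+c-kit+CD127+. Day 14 and day 17 thus shared a gate, whereas at the first step (iHEC to day 14) and at the last (day 17 to day 21) gate and day changed together and cannot be told apart. The labels name no separate cultures or animals, so each group is 1 sample, its cells are not replicates, and no p-value is given.

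All 6 genes lie on mouse chromosome 11 (GRCm38). Ccl2 stood apart, at chr11:82035571-82037453 on the plus strand. After a gap of 1488 kb came Ccl5 (chr11:83525778-83530518), Ccl9 (chr11:83572919-83578636), Ccl6 (chr11:83587882-83593087) and Ccl3 (chr11:83647844-83649355), all on the minus strand, and then Ccl4 (chr11:83662584-83664683) on the plus strand. Ccl9 and Ccl6 were the closest neighbors, 9.25 kb apart, and Ccl3 and Ccl4 were 13.2 kb apart. The longest annotated protein-coding transcript of each gene was compared with that of the others. The longest run of bases shared by any 2 of these was 9 to 13 bases, except for Ccl6 and Ccl9, which shared 25. Promoters were found in the RefSeq table (GRCm38.p6) for 3 of the 6 genes, Ccl3, Ccl6 and Ccl9, which include the most widely detected genes of the set. They are shown to compare the letters upstream of genes that were detected in the same cells. Each line holds the 250 bases before the RefSeq start, with every match to 1 of 6 searched motifs in capitals.
Ccl3: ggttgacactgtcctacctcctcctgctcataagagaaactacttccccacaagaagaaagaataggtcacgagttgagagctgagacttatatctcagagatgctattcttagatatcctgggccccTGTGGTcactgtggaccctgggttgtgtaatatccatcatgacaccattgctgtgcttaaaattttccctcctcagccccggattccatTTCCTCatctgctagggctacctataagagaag
Ccl6: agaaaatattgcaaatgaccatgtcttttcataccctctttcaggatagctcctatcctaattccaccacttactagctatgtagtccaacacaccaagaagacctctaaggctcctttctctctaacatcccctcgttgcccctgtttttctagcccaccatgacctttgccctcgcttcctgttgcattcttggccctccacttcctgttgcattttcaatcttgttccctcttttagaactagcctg
Ccl9: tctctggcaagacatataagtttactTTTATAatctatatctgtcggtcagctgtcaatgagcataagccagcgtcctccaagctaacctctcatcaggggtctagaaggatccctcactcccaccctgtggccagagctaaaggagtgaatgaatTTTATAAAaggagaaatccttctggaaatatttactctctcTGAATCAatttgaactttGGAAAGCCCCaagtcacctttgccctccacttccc
These windows are chr11:83649379-83649628, chr11:83593088-83593337 and chr11:83578637-83578886, read on the minus strand. The motifs were searched on both strands. The letters were GGG and CC with any 5 bases between them for NF-kB, TGANTCA for AP-1, TTGCNNAA for C/EBP, TATAAA for a TATA box, TGTGGT for Runx and GAGGAA for an ETS site of the PU.1 type. The Ccl3 window held TGTGGT at -122 to -117 and GAGGAA on the reverse strand at -33 to -28, and none of the other 4. The Ccl9 window held an NF-kB match on the reverse strand at -35 to -26 and an AP-1 match at -53 to -47. It also held 3 TATAAA matches, a pair of which overlap on opposite strands between -94 and -87. The Ccl6 window held none of the 6. Among 32536 promoter windows of the same length, 46% held the NF-kB letters, 6.73% those of AP-1, 9.57% those of C/EBP, 12.3% TATAAA, 14% TGTGGT and 23.4% GAGGAA. Such matches describe the letters only.

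Expression was given as TPM, a transcript abundance corrected for length and brought to a common sum per cell, which keeps no read count, so depth is unknown. The only measure of complexity is the number of genes above 1 TPM, with a median of 4926 per iHEC (3309 to 7533) and 8200, 8101 and 6695.5 per iHPC at the successive days. Hprt, which every cell uses, was at 0 in 6 of the 160 cells, all iHECs, so a 0 is written below as listed at 0. Of 7 endothelial markers, the iHECs had 4 to 7 above 1 TPM (median 7). The iHPCs had fewer but not none, with 1 to 3 at days 14 and 17 and 0 to 2 at day 21 (median 2 in each). Cdh5, which encodes VE-cadherin, was at 0 in all iHPC groups. Ptprc, which encodes CD45, was at or below 1 TPM in 4 of the 95 iHPCs, against their CD45+ gate. They are day-14 replicates 4 and 17, day-17 replicate 9 and day-21 replicate 49, and none had any of the 6 chemokines above 1 TPM. In addition, 9 pairs of cells of 1 group (4 of iHECs, 4 of day 14, 1 of day 17) shared 84.8% to 95.3% of the genes detected in either cell. The next most alike pairs shared at most 67.7% among iHECs, 81.3% at day 14 and 75.9% at day 17, and no day-21 pair exceeded 72.4%. The chemokines were nearly the same within the iHEC pairs (Ccl2 at 2307 and 2384 TPM in replicates 24 and 25) but not within those of day 14 (Ccl4 at 0 and 487 TPM in replicates 13 and 20). Day-17 replicates 1 and 18 also stood apart from the other day-17 cells, with 11 of 14 neutrophil or monocyte markers above 1 TPM. These summed to 9750 and 8686 TPM, against a median of 102 at day 17, and neither cell had a T lymphoid marker above 1 TPM. Results that rest on these cells are also given with each pair counted once, which leaves 151 cells, without the 4 iHPCs low in Ptprc, or without the 2 myeloid-rich day-17 cells. The last of these takes out no day-14 cell, although day-14 cells had up to 10 of the 14 markers above 1 TPM (median 8).

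Ccl3 was the most widely detected of the 6 at day 14. Its level in day-14 iHPCs ran from 0 through a median of 143 to 2952 TPM, and 19 of 21 cells were above 1 TPM (90.5%, exact 95% interval 69.6% to 98.8%). The 2 cells at or below 1 TPM were the 2 low in Ptprc, so that without them all 19 cells had it. At day 17, Ccl3 had a median of 0 and a maximum of 71.2 TPM, with 5 of 18 cells above 1 TPM (27.8%, 9.69% to 53.5%). Of the 3 at over 10 TPM, 2 were the myeloid-rich replicates 1 and 18, at 47.7 and 46.1 TPM, and without these it was 3 of 16 cells (18.8%). At day 21, 4 of 56 cells were above 1 TPM (7.14%, 1.98% to 17.3%), the highest at 246 TPM, and the median was 0. Among iHECs, 4 of 65 were above 1 TPM (6.15%, 1.7% to 15%), at 30.5, 38.4, 498 and 1216 TPM. The groups overlapped, because every group held cells listed at 0, and 1 iHEC exceeded all but the highest day-14 cell. In day-14 cells the level was uneven, with 60.4% of the summed TPM in the 3 highest cells.

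Ccl4, whose gene lies next to that of Ccl3, was less widespread and more uneven. At day 14 it ran from 0 through a median of 9.01 to 1374 TPM, and 12 of 21 cells were above 1 TPM (57.1%, 34% to 78.2%). The 3 highest day-14 cells held 74.7% of the summed TPM. At day 17, 6 of 18 cells were above 1 TPM (33.3%, 13.3% to 59%), up to 99.8 TPM. At day 21, the sole cell above 1 TPM had 28.2 TPM. In iHECs, 7 of 65 were above 1 TPM (10.8%, 4.44% to 20.9%), up to 97.4 TPM, and 4 of these 7 belonged to 2 close pairs, so that with each pair counted once it was 5 of 61. At day 14, Ccl3 was higher than Ccl4 in 17 cells, lower in 3 and equal in 1, on the TPM scale, which is per length of transcript.

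Ccl9 stayed widespread over days 14 and 17. In day-14 iHPCs it ran from 0 through a median of 39.4 to 319 TPM, and 18 of 21 cells were above 1 TPM (85.7%, 63.7% to 97%). In day-17 iHPCs it ran from 0 through a median of 18.6 to 68.8 TPM, and 15 of 18 cells were above 1 TPM (83.3%, 58.6% to 96.4%). The highest day-17 cell was the myeloid-rich replicate 1, and without that cell and replicate 18 it was 13 of 16 cells, up to 35.7 TPM. The shares of the 2 days were thus alike while the top of the range was lower at day 17. At day 21, 11 of 56 cells were above 1 TPM (19.6%, 10.2% to 32.4%), between 7.29 and 47.7 TPM, and the rest were listed at 0. In iHECs, 4 of 65 were above 1 TPM (6.15%), up to 118 TPM. Its summed TPM was spread over more cells than that of Ccl3, with 44.5% in the 3 highest cells at day 14 and 38.8% at day 17.

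Ccl6, the neighbor of Ccl9 and like it a Ccr1 ligand, was sparser. At day 14, 7 of 21 cells were above 1 TPM (33.3%, 14.6% to 57%), from 7.84 to 34.1 TPM. At day 17, 7 of 18 cells were (38.9%, 17.3% to 64.3%), from 3.94 to 56.7 TPM, with the highest value in the myeloid-rich replicate 18, and at day 21 it was 3 of 56 (5.36%, 1.12% to 14.9%), from 11.6 to 28.3 TPM. The median was 0 in all 4 groups. Of 65 iHECs, 2 had Ccl6, at 6.99 and 1197 TPM, and the latter was the highest value of Ccl6 in the table. Ccl6 was higher than Ccl9 in 2 of the 21 day-14 cells and in 4 of the 18 day-17 cells.

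Ccl2 had its largest share in iHECs, and Ccl5 was seen at day 21 alone. The limit for 0 cells at day 14, 14.3%, lies above both shares, so neither share is set apart from day 14. Ccl2, the monocyte attractant, was above 1 TPM in 9 of 65 iHECs (13.8%, 6.53% to 24.7%), from 1.97 to 2384 TPM, and the 4 highest were at 1357, 1367, 2307 and 2384 TPM. With each close pair counted once it was 7 of 61 iHECs. No day-14 iHPC had Ccl2, and 0 of 21 cells allows a share of up to 14.3%. The 2 day-17 cells with Ccl2, at 14.5 and 20.5 TPM, were replicates 11 and 10, a close pair, so that counted once it was 1 of 17. The sole day-21 cell had 56.1 TPM. Ccl5, the T cell and monocyte attractant, was listed at 0 in all 65 iHECs, all 21 day-14 and all 18 day-17 cells, where the limits on its share are 4.62%, 14.3% and 16.7%. At day 21, 5 of 56 cells exceeded 1 TPM (8.93%, 2.96% to 19.6%), at 17.3, 18.1, 24.6, 29.8 and 62.3 TPM. Intervals and limits cover counting error only.

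**Figure D1:**
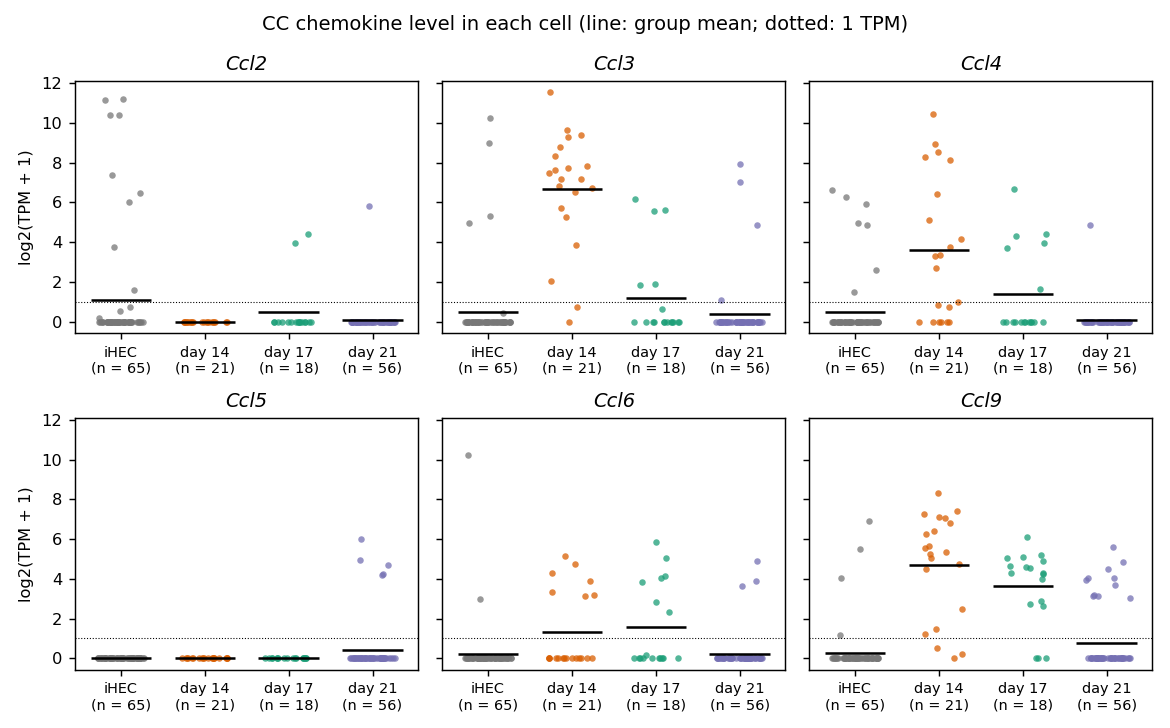
Level of each of the 6 chemokines in every cell, as log2(TPM + 1), by group, with the number of cells under each name. Points are cells, the black line is the mean of the group and the dotted line is 1 TPM. Ccl3 and Ccl4 reach their highest values at day 14, Ccl9 fills both day 14 and day 17, Ccl2 has its highest values in iHECs, and Ccl5 lies above 0 at day 21 alone.

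**Figure D2:**
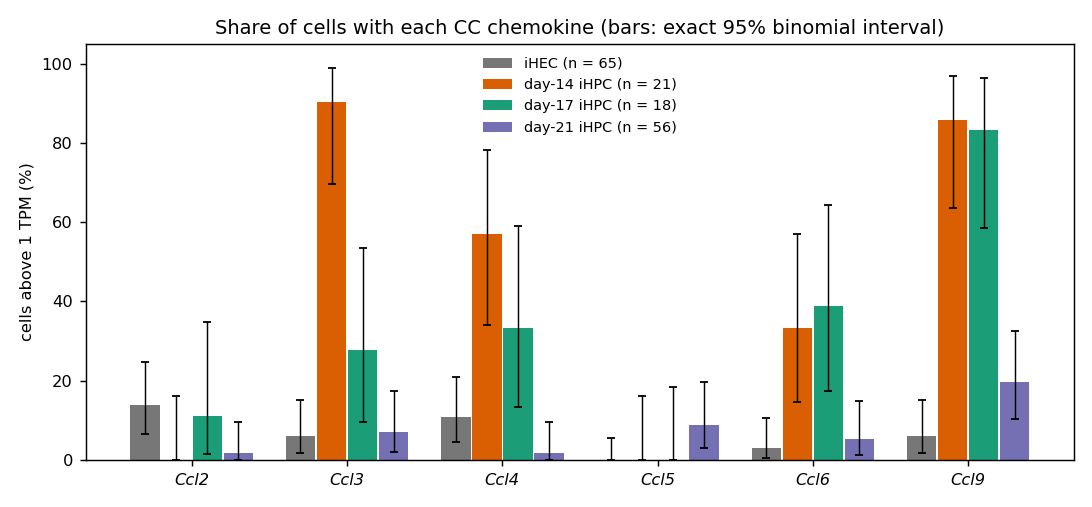
Share of cells above 1 TPM (percent, vertical axis) for each chemokine, with 1 bar per group (65 iHECs, 21 day-14, 18 day-17 and 56 day-21 iHPCs) and exact 95% binomial intervals. Ccl3 goes from 90.5% at day 14 to 27.8% at day 17, while Ccl9 is at 85.7% and 83.3%.

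The mean of log2(TPM + 1) was compared between consecutive groups, with a difference of 1 or more, which is 2-fold on this scale, taken as past the limit. This scale understates the change of low genes. From iHEC to day 14, 4 of the 6 were past the limit upward and 1 downward. Among all genes, 20.6% were past it upward and 5.37% downward, while of a subset of 9674 genes, those seen above 1 TPM by more than 30 cells, it was 48% and 11.5%. Only Ccl3 and Ccl9 are in that subset. The means were 0.46 ± 1.87 (SD between cells, n = 65) and 6.65 ± 2.92 (n = 21) for Ccl3, a difference of 6.19. They were 0.27 ± 1.19 and 4.70 ± 2.63 for Ccl9, a difference of 4.43, and 0.50 ± 1.58 and 3.60 ± 3.56 for Ccl4, a difference of 3.10. Ccl6 was past the limit by little, with a difference of 1.12, and Ccl2 was lower by a difference of -1.08. The median difference was 2.11 over the 6 chemokines and 0.93 over the 9674 genes, and relative to the latter Ccl3, Ccl4 and Ccl9 were still higher, by 5.26, 2.17 and 3.50, while Ccl6 was at 0.19 and Ccl2 at -2.00. Ccl2 was listed at 0 in all 21 day-14 cells, so -1.08 was the largest fall that its levels allowed. With each close pair counted once, the difference of Ccl2 was -0.86.

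From day 14 to day 17, 3 of the 6 were past the limit downward and 0 upward. Over all rows 1.99% were past it downward and 7.01% upward, and over the 9674 genes 3.89% and 15.5%. Ccl3 differed by -5.45, from 6.65 ± 2.92 (n = 21) to 1.20 ± 2.19 (n = 18), and Ccl4 by -2.23, from 3.60 ± 3.56 to 1.37 ± 2.18. Ccl9 differed by -1.08, from 4.70 ± 2.63 to 3.62 ± 1.89, less than the spread between cells of day 14, and with each cell scaled by median-of-ratios size factors it was -0.93 and within the limit. Ccl6 differed by 0.25 and Ccl2 by 0.47. The median over the 6 was -0.54, against 0.28 over the 9674 genes. Without the 4 iHPCs low in Ptprc the same 3 genes were past the limit, as they were without the 2 myeloid-rich day-17 cells. In the latter case the day-17 mean of Ccl3 was 0.66 ± 1.60 (n = 16) and its difference -5.99. That cut left out cells of day 17 and none of day 14, so it is not an even check of this step.

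From day 17 to day 21, 3 of the 6 were past the limit downward and 0 upward. Here 16.8% of all rows and 38.5% of the 9674 genes were past it downward, and 1.17% and 2.33% upward. Ccl9 differed by -2.85, from 3.62 ± 1.89 (n = 18) to 0.77 ± 1.61 (n = 56). Ccl6 differed by -1.34 and Ccl4 by -1.28, and Ccl3 by -0.83. Without the 2 myeloid-rich day-17 cells these were -0.92, within the limit, -1.12 and -0.28. The median was -1.06 over the 6 and -0.74 over the 9674 genes. Relative to the latter Ccl9 was at -2.11, Ccl4 and Ccl6 were at -0.55 and -0.61, and Ccl5 was at 1.17. The difference of Ccl5 itself was 0.43. It was listed at 0 in every day-17 cell, so it could not be lower at day 21.

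The choice of genes did not use which of them occurred in the same cell, but the shares it did use bound such counts. The counts are therefore a description as well. At day 14, no cell had a single chemokine above 1 TPM. The 2 cells low in Ptprc had none, 6 cells had 2 of the 6, 8 had 3 and 5 had 4. All 18 cells with Ccl9, all 12 with Ccl4 and all 7 with Ccl6 also had Ccl3, and all 12 with Ccl4 had Ccl9. With 19 of 21 cells above 1 TPM of Ccl3, such nesting leaves little room for another outcome. At day 17, 11 of 18 cells had 2 or more, 6 had 1 and 1, the cell low in Ptprc, had none. The 2 cells with 4 were the myeloid-rich replicates 1 and 18, and without them 9 of 16 had 2 or more and none had 4. All 5 day-17 cells with Ccl3 also had Ccl9, but so did 15 of all 18 cells of that day. Of the 5 cells with Ccl3, 3 had Ccl4. At day 21, 39 of 56 cells had none, 11 had 1, 5 had 2 and 1 had 4. That cell, replicate 24, had Ccl2 at 56.1, Ccl5 at 18.1, Ccl6 at 11.6 and Ccl9 at 14.4 TPM. Of the 4 day-21 cells with Ccl3, 1 also had Ccl9, with Ccl3 at 1.16 TPM. Of the 5 day-21 cells with Ccl5, 3 also had Ccl9.

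Within day 14, the log2 levels of Ccl3 and Ccl4 had a Pearson r of 0.48 and those of Ccl3 and Ccl9 of 0.50 over 21 cells. Without the 2 cells low in Ptprc, they were 0.37 and 0.15 over 19 cells, so that the second rested on those cells. Ccl6 and Ccl9, which lie next to each other on the chromosome, had an r of 0.09 at day 14 and of 0.02 at day 17. These values are descriptions of cells that share a group, with depth unknown. The cell highest in Ccl4, day-14 replicate 1 at 1374 TPM, had Ccl3 at 143 TPM. The cell highest in Ccl3, replicate 18 at 2952 TPM, was also the highest in Ccl9 at 319 TPM and had Ccl4 at 278 TPM.

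**Figure D3:**
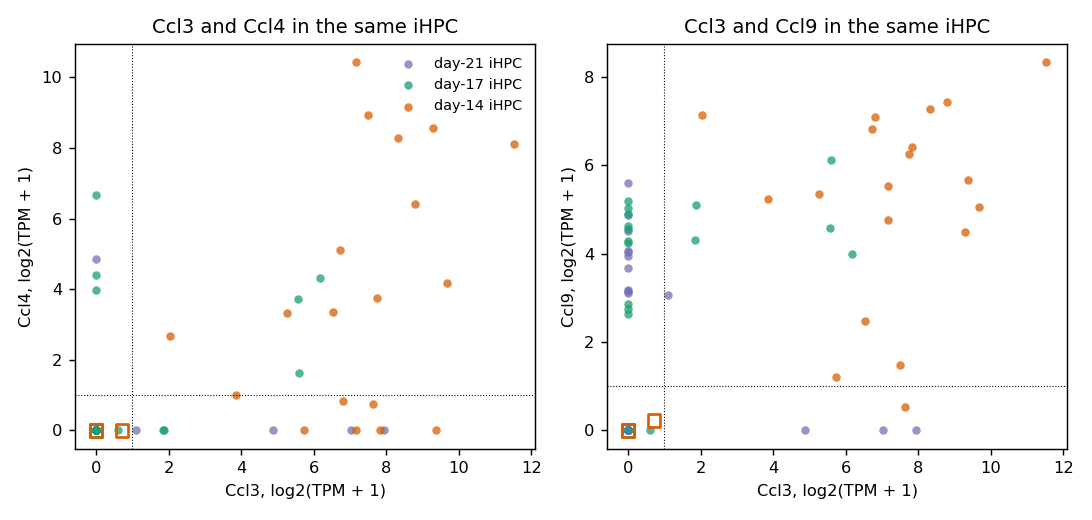
Ccl3 against Ccl4 (left) and against Ccl9 (right) in the 95 iHPCs, each axis as log2(TPM + 1), colored by day, with dotted lines at 1 TPM and open squares for the 4 cells low in Ptprc. No day-14 cell lies above the line for Ccl4 or Ccl9 and below that for Ccl3, while day-17 and day-21 cells with Ccl9 and no Ccl3 line the vertical axis.

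The iHECs with a chemokine mostly had 1. Of 65 iHECs, 45 had none of the 6 above 1 TPM, 15 had 1, 4 had 2 and 1 had 3. None of the 9 iHECs with Ccl2 had any other of the set. Of the 7 endothelial markers, 7 were above 1 TPM in iHEC replicates 19, 25 and 45, which had Ccl2 at 1367, 2384 and 1357 TPM, and 6 in replicate 24. These 4 cells had none of the 7 stromal markers above 1 TPM. Over all 65 iHECs the number was 0 to 1 (median 0) for stromal and 4 to 7 (median 7) for endothelial markers. By these markers the 4 cells were thus like other iHECs. The cell with 3 was replicate 31, with Ccl3 at 498, Ccl6 at 1197 and Ccl9 at 118 TPM. It had 4 of the 7 endothelial markers and 3 of 14 neutrophil or monocyte markers above 1 TPM, and Ptprc was listed at 0. The 1 iHEC with Ptprc above 1 TPM, replicate 64 at 53.9 TPM, had none of the 6 chemokines.

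Day-21 iHPCs were split at 31 TPM of Gata2, a transcription factor of mast cells and of early progenitors, into 22 cells at or above it and 34 below. The nearest cells were at 66 TPM above and 9.18 TPM below, so no cell lay near the threshold. Median genes above 1 TPM were 6665.5 and 6769.5. Ccl9 was above 1 TPM in 10 of the 34 Gata2-low cells (29.4%, 15.1% to 47.5%) and in 1 of the 22 Gata2-high cells (4.55%, 0.115% to 22.8%). That 1 cell, replicate 17, was the one at 66 TPM of Gata2, had 5122 genes above 1 TPM, and was also the sole Gata2-high cell with Ccl5. Ccl3 had the other placing, in 3 Gata2-high cells at 28.4, 130 and 246 TPM and in 1 Gata2-low cell at 1.16 TPM. The other Ccl5 cells (4), all 3 Ccl6 cells, and the single cells with Ccl2 and with Ccl4 were Gata2-low. None of the 6 was past the 2-fold limit, where 5.95% of all rows were past it upward and 4.46% downward, and 13% and 10.2% of the 9674 genes. The closest were Ccl9 at -0.91 and Ccl3 at 0.87, which were -0.08 and 0.62 with the split at 1 TPM of Gata2, and the median over the 6 was -0.22, against 0 over the 9674 genes. In cells with 6000 or more genes above 1 TPM, Ccl9 was in 10 of 23 Gata2-low and 0 of 17 Gata2-high cells, and both genes were past the limit, at -1.67 and 1.12. The same split chose these genes, so it is no support for a difference. Il7r, which encodes the sorted protein CD127, was above 1 TPM in 8 of 22 Gata2-high and 33 of 34 Gata2-low cells, and Cpa3, a mast cell protease, in all 56, with log2 means of 13.01 and 9.27.

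**Figure D4:**
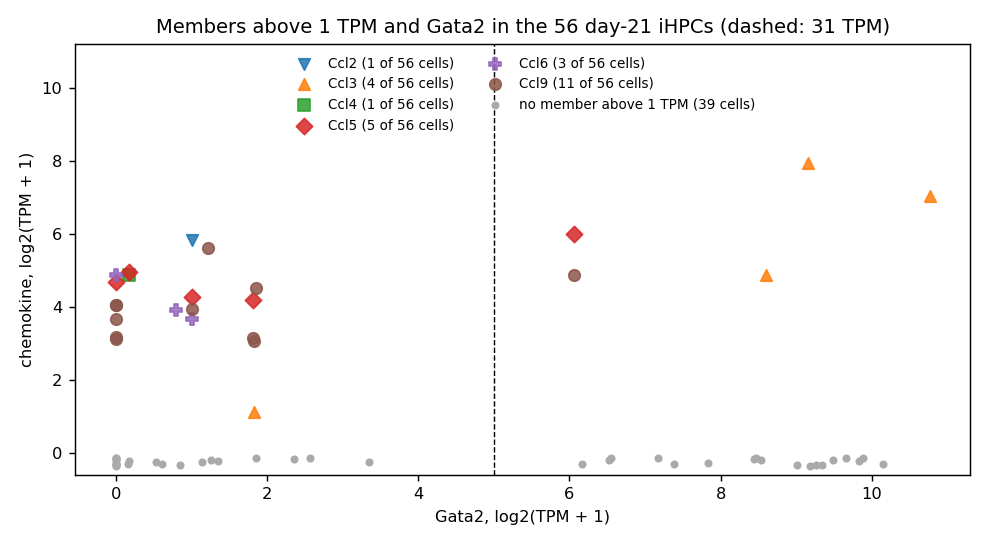
Level of each chemokine above 1 TPM (vertical axis, log2(TPM + 1), 1 symbol per gene) against Gata2 (horizontal axis, log2(TPM + 1)) in the 56 day-21 iHPCs, with the 31 TPM threshold dashed. Gray points near 0, jittered, are the 39 cells with none of the 6. To the right of the line lie 3 Ccl3 symbols and 1 cell with Ccl5 and Ccl9, and the other symbols lie to its left.

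The receptors of these chemokines were looked at in the same cells, from a list of 16 CC receptors and atypical receptors. Ccr1 and Ccr2 were listed at 0 in all 65 iHECs, which allows a share of up to 4.62% each. Ccr2, the receptor of Ccl2, was seen in 12 of 21 cells at day 14 (57.1%, 34% to 78.2%), a group with no Ccl2, and in 3 of 18 and 8 of 56 cells at days 17 and 21. No cell of any group had both Ccl2 and Ccr2, but Ccl2 was in only 2 of 18 and 1 of 56 cells at days 17 and 21. Ccr1 was in 3, 1 and 7 cells of the 3 days. The 3 day-14 cells all had Ccl3 and Ccl9, as did most cells of that day (19 and 18 of 21). At day 21 no cell had Ccr1 together with Ccl3, Ccl5, Ccl6 or Ccl9, which were in 4, 5, 3 and 11 of 56 cells. Such counts leave little room for another outcome, so no pairing or exclusion is read from them. Ackr2, a scavenger receptor of inflammatory CC chemokines, was above 1 TPM in 15 of 65 iHECs (23.1%, 13.5% to 35.2%) and in no iHPC. Of the 16 receptors, 3 were past the limit upward from iHEC to day 14 (Ccr2, Ccr7 and Ccrl2) and 1 downward (Ackr2), near the 20.6% and 5.37% of all rows. From day 14 to day 17, 1 of the 16 was past it upward (Ccr9, the receptor of Ccl25) and 2 downward (Ccr2 and Ccr7). Of all rows, 7.01% were past it upward at that step and 1.99% downward, so the upward count was near that share. From day 17 to day 21, 1 was past it upward (Ccr8) and 0 downward, where all rows had 1.17% and 16.8%. Such small counts are not read as a result about the receptors.

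Of 15 other CC ligands, 10 were above 1 TPM in no cell. The 3 highest in iHPCs were Ccl25, Ccl1 and Ccl27a. Ccl25, which attracts thymic progenitors, was found in 18 of 65 iHECs, and at days 14, 17 and 21 it was found in 12 of 21, 8 of 18 and 25 of 56 cells. It was past the limit upward from iHEC to day 14 and downward from day 14 to day 17. At both steps it was the only 1 of the 15 past the limit. Of all rows, 20.6% were past it upward at the first step and 1.99% downward at the second. Ccl1, the ligand of Ccr8, was listed at 0 before day 21 and was above 1 TPM in 11 of 56 day-21 cells (19.6%, 10.2% to 32.4%), up to 418 TPM. Of these, 9 were among the 22 Gata2-high and 2 among the 34 Gata2-low cells, and Ccr8 was in 8 and 2. Both genes were together in 3 cells. Ccr9 was in 4 of 22 Gata2-high and 29 of 34 Gata2-low cells. Ccl27a, a skin chemokine, was in 6, 3 and 4 cells of the 3 days. Among 16 chemokines of the other groups, Cxcl10, a T cell attractant, was in 0 of 65 iHECs and 10 of 21 day-14 cells. From day 14 to day 17, 2 of the 16 were past the limit downward, Cxcl10 and the platelet chemokine Pf4, and 0 upward. Of all rows, 1.99% were past it downward and 7.01% upward. Cx3cl1, also among the 3 highest of that list in iHPCs, was in 25 iHECs and in 8, 3 and 4 cells of the 3 days.

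**Figure D5:**
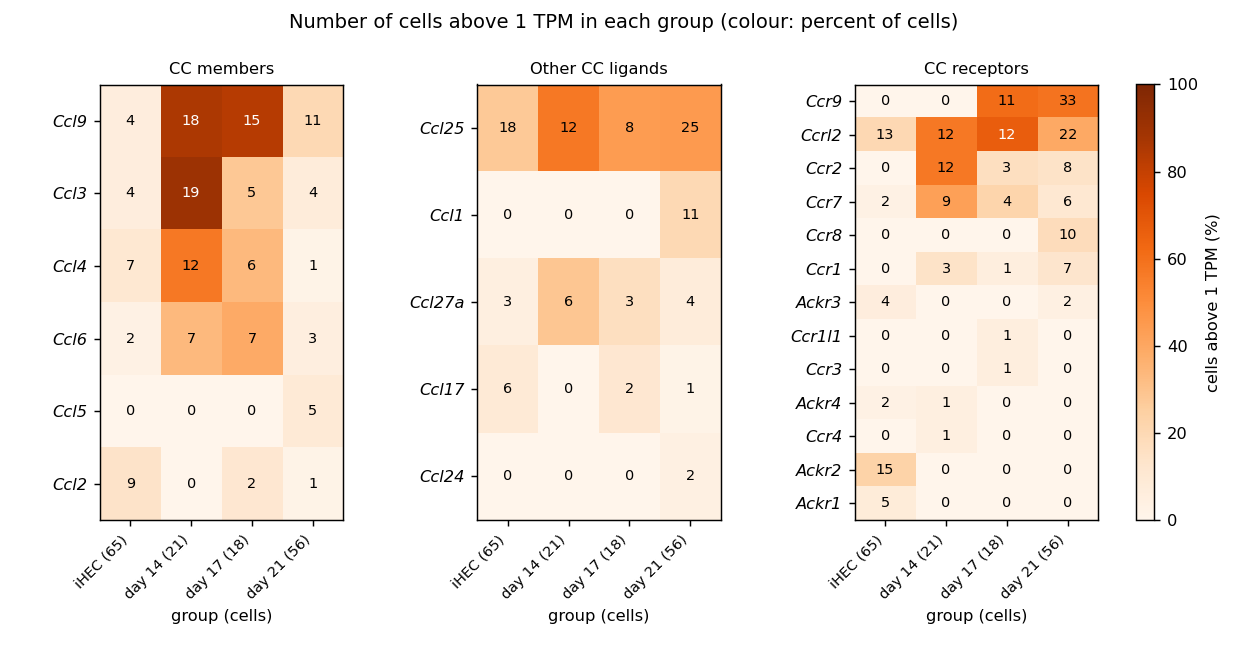
Number of cells above 1 TPM (printed) and percent of cells (color) in each group, for the 6 chemokines, the 5 of 15 other CC ligands that any cell had and the CC receptors reported here that any cell had. Ccr2 has its largest share at day 14, where Ccl3 does, and Ccl1 and Ccr8 appear at day 21 alone.

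Genes of other lists moved over the same groups, and their part in the chemokine levels was not tested. Their counts stand against the shares over all rows and over the 9674 genes, which were 20.6% and 48% upward and 5.37% and 11.5% downward from iHEC to day 14. They were 7.01% and 15.5% upward and 1.99% and 3.89% downward from day 14 to day 17, and 1.17% and 2.33% upward and 16.8% and 38.5% downward from day 17 to day 21. Of 14 neutrophil or monocyte markers, 9 were past the limit upward from iHEC to day 14 and 0 downward, and from day 14 to day 17, 7 were past it downward and 1 upward. Their summed TPM per cell ran from 0 to 7318 (median 86) in iHECs, from 0.787 to 1949 (median 980) at day 14, from 3.9 to 9750 (median 102) at day 17 and from 0 to 5045 (median 229) at day 21. The 3 highest in iHPCs were Fcgr3, an Fc receptor, and the granule proteases Prtn3 and Ctsg. Prtn3 had shares of 19 of 21, then 17 of 18, then 11 of 56 cells over the 3 days. From day 17 to day 21, 5 of the 14 markers were past the limit downward, Prtn3 among them, and 3 upward (Ctsg, Fcgr3 and Adgre1). S100a9, another of this list, was at 0 in all 160 cells, where 12 of the 14 markers were above 1 TPM in some iHEC or day-14 cell. The gate of days 14 and 17 had left out Gr1+ cells. From day 14 to day 17, the 7 past the limit downward included Mpo, a granule enzyme, and Csf1r, the receptor of a macrophage growth factor. Mpo and Csf1r were in 17 and 19 of the 21 day-14 cells and in 4 and 5 of the 18 day-17 cells. The 1 marker past the limit upward at that step was Ly6c2, and others, among them Lyz2, Itgam and Ctsg, were within it. In a list of 16 genes of NF-kB, a pathway that drives many chemokine genes, 7 were past the limit upward and 2 downward from iHEC to day 14, 0 and 4 from day 14 to day 17, and 4 and 7 from day 17 to day 21. The 7 upward at the first step and the 7 downward at the last were close to the shares of the 9674 genes. Its 3 highest in iHPCs were the inhibitors Nfkbib and Nfkbia and the early response gene Ier3. Nfkbia was in 19 of 21, 13 of 18 and 50 of 56 cells of the 3 days, and Tnf, an inflammatory cytokine, in 12, 2 and 30. All 8 interferon-response genes were past the limit upward from day 14 to day 17, with a median difference of 6.33. Rtp4, Usp18 and Isg15, the 3 highest, were in 17, 18 and 18 of the 18 day-17 cells. At that day Ccl5 was listed at 0 in all 18 cells, which allows a share of up to 16.7%, and Cxcl10 was in 2 cells. A link of these levels to interferon was not tested. Of 10 mast cell or basophil markers, 7 were past the limit upward from day 17 to day 21, led by Cpa3, Mcpt4 and Mcpt1, in 56, 53 and 50 of 56 cells. Of 9 cytotoxic or innate lymphoid markers, 3 were past it upward at that step (Gzmb, Nkg7 and Gzma) and 1 downward (Eomes). Of these 9, 7 were above 1 TPM in some day-17 or day-21 cell, while Ncr1 was at 0 in every cell. Of 5 T lymphoid markers in the table, Cd3g was past it upward at the same step and Lck downward. Stromal markers, as feeder cells would carry, were at most 4 of 7 above 1 TPM in any cell and mostly Pdgfrb, which was in 0 iHECs and in 10, 16 and 44 iHPCs. Of the 7, 5 were above 1 TPM in some day-14 or day-17 cell, while Col3a1 and Lum were above it in no cell. Day-17 replicates 15 and 9 had 4 and 3 stromal markers above 1 TPM, and replicate 9 was low in Ptprc. Whether these came from feeder cells was not tested.

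For each chemokine, the genes with the most similar pattern over the 95 iHPCs were found by Pearson correlation of log2(TPM + 1) after the mean of each day was subtracted. The search covered the 6 chemokines and the 9674 genes above 1 TPM in more than 30 of all 160 cells. That filter counts iHECs, so genes seen in few iHPCs, such as Arhgef28, entered through iHECs. Those of Ccl3 were Anxa3, an annexin (r = 0.52), Fcer1g, the shared signaling chain of Fc receptors (0.52), and Lyn, a Src-family kinase (0.48). Without the 4 cells low in Ptprc, r was 0.44, 0.34 and 0.33, and without the 2 myeloid-rich cells 0.43, 0.48 and 0.47. Anxa3 was above 1 TPM in 22 iHPCs, whereas Fcer1g and Lyn were in 93 and 90. Those of Ccl9 were Thsd1 (0.49), the histone variant gene H2afy (0.46) and the transcription factor gene Mef2c (0.45), and without the 4 cells, 0.43, 0.25 and 0.31. Those of Ccl6 were Fcgrt, the neonatal Fc receptor (0.52), the inflammatory caspase Casp4 (0.45) and the protease inhibitor Serpina3g (0.45), which were 0.51, 0.43 and 0.42 without the 4 cells and 0.46, 0.35 and 0.38 without the 2 myeloid-rich cells. For Ccl4 they were Rhoj (0.44), Mansc1 (0.41) and 1810011O10Rik (0.39), which were above 1 TPM in 4, 2 and 3 iHPCs. For Ccl5, in 5 iHPCs, they were Ndrg2, St6galnac6 and Ppap2b, with r between 0.39 and 0.46. For Ccl2, in 3 iHPCs, they were Arhgef28, Ctgf and Ddah1, and Arhgef28 was above 1 TPM in 1 iHPC. The last 3 sets rest on few cells. The points share their day and an unknown depth, and nothing is read from these values.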

How the data were processed

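Single sorted cells were profiled in 4 groups taken from the labels. The authors amplified the cDNA of each cell, aligned reads to mm10 with HISAT2 2.1.0, handled alignments with SAMtools 0.1.19 and estimated TPM with StringTie 1.3.4, as the methods and the submitters' processing notes give it. The TPM values were deposited as 1 table with a column per cell, of which 0 were left unused. Values of a cell summed to between 988686 and 999108 TPM. They keep no counts, and a high gene lowers all others. Labels and methods disagree on the sequencer model.

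Here, values were put on the log2(TPM + 1) scale, detection meant a value above 1 TPM, and no cell was left out. Groups were compared by differences of means with no test, since the labels name no culture or animal, and shares have exact Clopper-Pearson 95% intervals, with 3 cells of the total as the limit for 0. The 6 genes and all lists (12 in all) were chosen with earlier results of these data known, and 129 of 130 listed genes were in the table, 6 of them under an older symbol. Named genes are the 6 chemokines, Gata2 and genes among the 3 highest in iHPCs of each list. Also named are the 3 most similar to each chemokine among the 9674 genes and the 6 chemokines, and gate genes where a result turned on them. Other list genes (among them Ccr1, Ccr2, Ackr2, Tnf, Mpo and Csf1r) were named after their values were seen. Close pairs of cells (83% or more of detected genes shared), iHPCs low in Ptprc and iHPCs with 11 or more neutrophil or monocyte markers were also found after the data were seen. Values of 1 listed receptor and 1 gate marker are not reported here. The difference of means and the search for similar genes were checked on shuffled values of these data with planted changes. Other steps were not checked in this way. Positions are from GENCODE on GRCm38, and promoters from RefSeq. Python 3.11.15, numpy 2.4.6, pandas 2.3.3, scipy 1.17.1 and matplotlib 3.10.9 were used.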

Additional observations from a re-analysis of the deposited data

How the results depend on the processing

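The number of chemokines past the 2-fold limit depended most on the pseudocount. With a pseudocount of 10 it was 3 in place of 5 from iHEC to day 14 and 1 in place of 3 from day 17 to day 21, and with 0.1 it was 2 in place of 0 by Gata2 at day 21. By Gata2 it was also 2 with a threshold of 100 TPM and 2 in cells with 6000 or more genes above 1 TPM. In each of these 3 cases the pair was Ccl3, higher in Gata2-high cells, and Ccl9, lower. With the split at Gata2 above 1 TPM it stayed 0, and Ccl9 went from -0.91 to -0.08 and Ccl3 from 0.87 to 0.62. The cause was not tested. Under the other alternatives run (size factors, cells with 4000 or more genes, differences relative to the median, close pairs counted once, iHPCs low in Ptprc left out, the 2 myeloid-rich day-17 cells left out), each count was within 1.5 times, and no chemokine past the limit changed direction. Of 210 alternative differences of single chemokines, 191 stayed on their side of the limit and 19 did not, among them Ccl6 from day 17 to day 21 without the 2 myeloid-rich cells (-0.92). Of 120 alternative shares, 119 stayed within their interval, the exception being Ccl3 at day 14, 100% without the cells low in Ptprc. Of the 18 genes most similar to the chemokines, 6 were kept with Spearman's correlation, 12 without the cells low in Ptprc, 13 without the myeloid-rich cells, 15 with close pairs counted once and 16 with the number of detected genes regressed out. Of the 3 most similar to Ccl9, all were kept with Spearman's correlation and none without the cells low in Ptprc, and of those of Ccl3, none without the myeloid-rich cells. The alternatives on close pairs, Ptprc and myeloid-rich cells were chosen after seeing the data. No paired analysis was possible because replicate numbers only name cells and no result comes from a test. Depth is unknown in TPM, so a chemokine listed at 0 may have been absent or not detected.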
